A study of Mus musculus with 2 samples.

Results

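The cytosolic chaperonin CCT, also called TRiC, is a folding machine built from 8 different subunits encoded by Tcp1, Cct2, Cct3, Cct4, Cct5, Cct6a, Cct7 and Cct8. These 8 genes, of 32285 in the expression table, are described here by cell cluster and genotype, and all 8 were detected in both libraries. They were chosen by name as a complex. The question put to them, whether Cct6a moves with the 7 other subunits, was asked after Cct6a had been seen at a higher level in 1 T cell cluster, so that difference is a description and supports nothing.

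The data are single-cell RNA-seq of live CD45+ cells, the leukocytes, sorted from the colon after lamina propria dissociation. The 5XFAD library pools 3 female mice, 9 months old, of the 5XFAD strain, whose human transgenes carry mutations of familial Alzheimer disease. The WT library pools 3 female littermates of the same age. With 1 pooled library per genotype no test between genotypes is possible, and every 95% interval below covers counting error only, not differences between mice. Intervals on UMIs treat each UMI as independent, so they leave out uneven levels between cells. Each library holds 3443 cells, with 18604847 UMIs (5XFAD) and 17939499 UMIs (WT), where a UMI is 1 counted RNA molecule. The median was 5209 and 4938 UMIs per cell. The libraries share 3 cell barcodes, and 106 WT cells but 0 5XFAD cells had 2500 or more genes. The 8 subunits made up 21100 UMIs or 0.113% of the 5XFAD library, and 19089 UMIs or 0.106% of the WT library.

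Each CCT particle stacks 2 rings, and each ring holds 1 copy of every subunit in a fixed order, so the complex needs all of them. Closing of the ring, driven by ATP, encloses a client protein and lets it fold. Actin and tubulin are the best known clients, and many WD40 repeat proteins also pass through the complex. Prefoldin hands over nascent clients, and phosducin-like proteins act as cochaperones. Lymphocytes that are activated to grow make more of the folding and ribosome machinery.

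The 17 deposited clusters carry numbers and no names. Clusters 0 to 5 are called B cell-like: 8 B cell markers summed to 5856 CPM (UMIs of the gene per 1000000 UMIs of the group) in 5XFAD and 6053 CPM in WT there. Clusters 6 and 7 held these markers at 5079 to 5447 CPM but are given by number, as their leading genes are others. Cluster 10, led by Cd40lg, Il17a, Cd6 and Cd28, is called T cell-like. From their markers, cluster 8 is called regulatory T cell-like and cluster 9 ILC2-like (group 2 innate lymphoid cells). Cluster 12 is called NK or ILC1-like and cluster 13 gamma delta T cell-like, and the others are given by number.

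In GRCm38 (GENCODE vM21 annotation) the subunit genes lie on 8 different chromosomes. Cct6a, the zeta subunit, is at chr5:129786998-129846371 on the plus strand, with up to 15 exons in a transcript. Tcp1, the alpha subunit, is at chr17:12915701-12925067, also on the plus strand. These positions are those of the first annotation entry under each gene name, and further entries of the same name were not looked for. Exons were counted over all transcripts of the name. The Cct6a entry used is typed as a processed transcript and spans 59374 bases, which may not describe its coding gene. Those of the 7 others are typed as protein coding and span 9367 to 24652 bases. Overlaps with genes on the same strand were not listed. Psph overlaps the start of this Cct6a entry, Mrpl18 that of Tcp1 and Pradc1 that of Cct7, each from the opposite strand. Acat3 and Usp16 overlap Tcp1 and Cct8 elsewhere. How strand was used in counting is not given in the sources used here. These neighbours were low or near even between the libraries over all cells. Psph had 189 UMIs in 5XFAD and 194 in WT, Acat3 had 4 and 1, and Mrpl18 had 1047 and 910. Usp16 had 1842 and 1796, and Pradc1 had 126 and 105. The neighbours were not compared within single clusters. Cct6b, the close paralogue of Cct6a, had 6 and 9 UMIs.

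RefSeq promoter windows (GRCm38.p6) of 300 bases were matched for 7 of the 8 subunits, with none for Cct4. They make 9 windows, since Cct2 and Cct5 have 2 each. They were searched on both strands for 6 motifs. The GC box GGGCGG was found in 8 of the 9 windows, against 35.7% of 32851 windows of the same length, and the window without it is 1 of those of Cct5. The CCAAT box was found in 4 of 9, against 37.4% of windows: Tcp1, Cct3, Cct6a and Cct7. The heat shock element in the form TTCNNGAA was found in 2 of 9, of Cct5 and Cct6a (8.52% of windows), and in the form GAANNTTC in 1 of 9, of Cct2 (7.86%). The ETS motif CCGGAAG was found in 3 of 9, of Tcp1, Cct2 and Cct8 (8.86%), and the E-box CACGTG in 0 of 9 windows (7.15%). Matches to different motifs overlapped 0 times in these windows. The 30 bases around the CCAAT box nearest before the start site are shown. This motif was picked since Cct6a and Tcp1, described below, both have one, as do Cct3 and Cct7. Its 4 of 9 windows are near the 37.4% of all windows, and no link between motif and expression was tested. Capitals mark CCAAT or, on the opposite strand, ATTGG.
Cct6a, chr5:129787315-129787344, plus strand: gagggtcgccacCCAATggaggtgctctgt
Tcp1, chr17:12916185-12916214, plus strand: atccctggctcaCCAATcaccgcagacgtt
Cct3, chr3:88297090-88297119, plus strand: atgagtttggtgATTGGcggcacttcagag
Cct7, chr6:85451398-85451427, plus strand: aaccgggcgctgATTGGccaaaactcttaa
The box lies 24 bases before the RefSeq start in Cct6a, 28 in Cct3, 90 in Cct7 and 127 in Tcp1.

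Across clusters, with both libraries summed, the 7 subunits other than Cct6a were at their highest in cluster 1 (1162 CPM, 1135 to 1190) and cluster 7 (1138 CPM, 1083 to 1196), whose intervals overlap. Cluster 1 is led by Cystm1, Dmxl1 and Gm19951, with the nucleolar genes Gnl3 and Nop16 also among its 10 leading genes, and cluster 7 by the activation genes Egr1, Egr2 and Myc. Cluster 2 followed at 994 CPM (964 to 1025), below both. The lowest levels were in the gamma delta T cell-like cluster 13 (753 CPM), the NK or ILC1-like cluster 12 (748 CPM) and cluster 16 (747 CPM), which do not differ beyond counting error. The ratio of the highest to the lowest cluster was 1.56. Tcp1, Cct2, Cct3 and Cct8 each had cluster 1 first and cluster 7 next. Cct5 was highest in cluster 14 and Cct4 in cluster 11, each with an interval that overlaps that of cluster 7, the next in order. Cct7, the eta subunit, had the ILC2-like cluster 9 first (137 CPM, 118 to 157), but this overlaps clusters 1 (129 CPM, 120 to 139) and 7 (129 CPM, 111 to 149).

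With both libraries summed, Cct6a stood highest in cluster 14 (435 CPM, 391 to 484) and cluster 10 (427 CPM, 393 to 464), which overlap, then in cluster 11 (287 CPM, 257 to 319), and then in cluster 1 (170 CPM, 160 to 181). This order rests largely on 34 cells with 10 or more Cct6a UMIs, 29 of them in 5XFAD. In WT, clusters 11 (188 CPM, 153 to 229) and 1 (177 CPM, 160 to 194) overlap. Without the 34 cells, Cct6a stood at 127 CPM (5XFAD) and 166 CPM (WT) in cluster 10, at 132 and 172 CPM in cluster 11 and at 197 and 215 CPM in cluster 14, against 165 and 177 CPM in cluster 1. Its lowest level was in cluster 9 (84.8 CPM, 70.4 to 101). All of these orders rest on clusters made from the same cells and are a description.

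**Figure D1:**
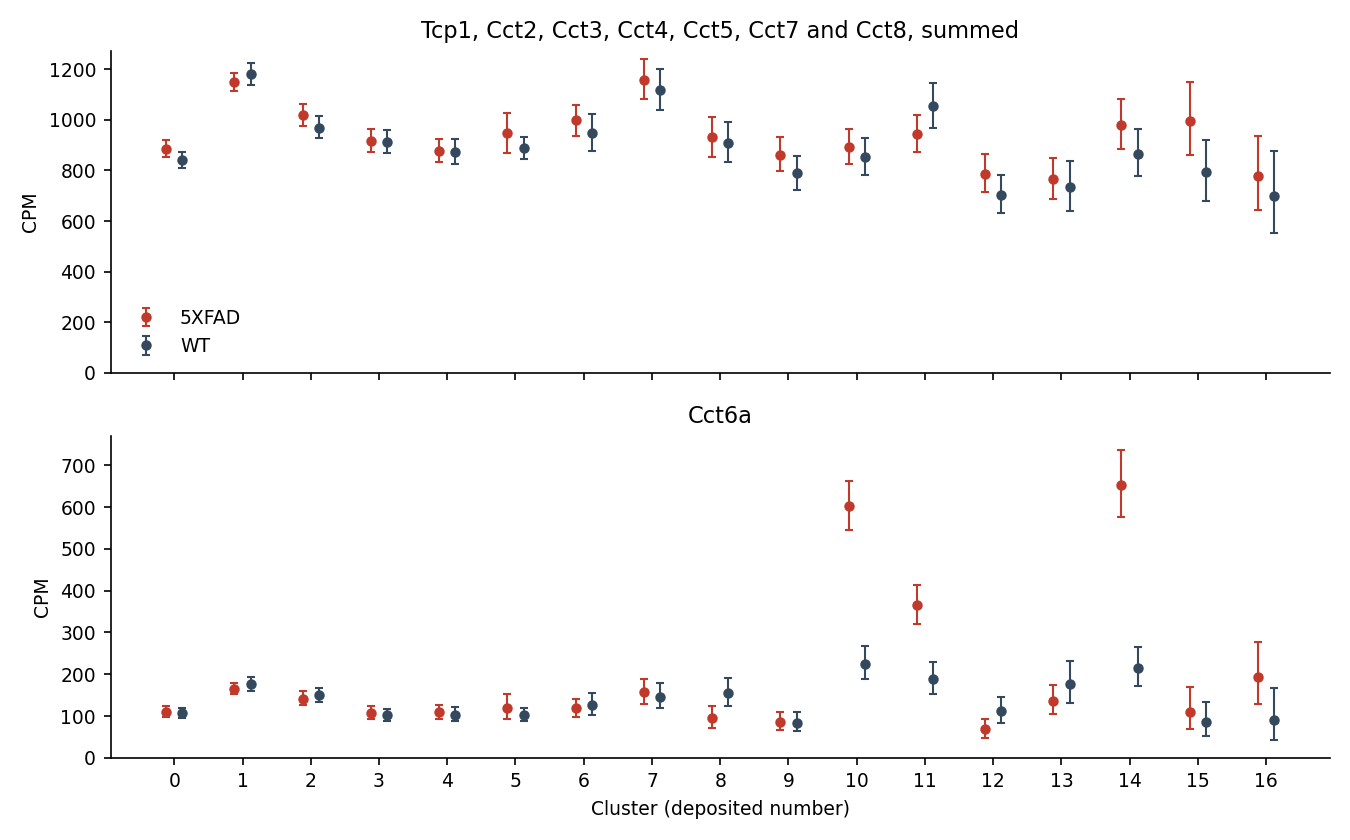
Level in CPM (vertical axis, from 0) by deposited cluster (horizontal axis) for the sum of the 7 other subunits (top) and for Cct6a (bottom), with 5XFAD in red, WT in dark blue and bars giving the exact Poisson 95% interval. The 7 summed subunits run close together in both libraries, while Cct6a reaches 602, 365 and 652 CPM in 5XFAD clusters 10, 11 and 14, against 226, 188 and 215 CPM in WT.

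In the B cell-like cells the complex was near even between the genotypes. The 7 other subunits summed to 988 CPM in 5XFAD and 948 CPM in WT, a log2 ratio of 0.06 (0.02 to 0.10). Cct6a stood at 131 CPM (5XFAD) and 126 CPM (WT), a log2 ratio of 0.06 (-0.04 to 0.16). Its share of the UMIs of all 8 subunits was 11.7% in 5XFAD and 11.7% in WT, and the log2 ratio of Cct6a to the others, which needs no scaling between libraries, was -0.0015 (-0.11 to 0.11). In these cells Cct6a therefore kept its proportion to the other subunits within counting error.

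Of the single subunits in B cell-like cells, 0 of 8 were past a log2 ratio of 0.5 in either direction, where 6.95% of 9681 genes with at least 50 UMIs were past it higher and 19.8% lower. Cct2, the beta subunit, had 242 CPM in 5XFAD against 219 CPM in WT (log2 ratio 0.15, 0.07 to 0.22). Cct3 (gamma) had a log2 ratio of 0.08, Cct5 (epsilon) 0.04, Cct7 0.03 and Cct8 (theta) 0.03, each with an interval that includes 0. Cct4, the delta subunit, had 137 CPM in 5XFAD against 119 CPM in WT (0.21, 0.11 to 0.31), and Tcp1 at 127 and 144 CPM (-0.18, -0.28 to -0.08). The median gene stood at -0.12 in this class, so on a scale set by the median gene the subunits shift up by that amount and Tcp1 comes to -0.05.

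Over all cells, 0 of 8 subunits were past 0.5, against 6.94% of genes higher and 15.8% lower. The log2 ratios were -0.21 for Tcp1, 0.12 for Cct2, 0.06 for Cct3, 0.22 for Cct4, 0.06 for Cct5, 0.31 for Cct6a, 0.07 for Cct7 and 0.04 for Cct8, where the median gene was at -0.10. Cct6a had 3058 UMIs in 5XFAD and 2381 in WT and the largest ratio of the 8, unlike in the B cell-like cells.

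By single cluster, 124 of 136 subunit and cluster pairs had at least 50 UMIs. The 7 subunits other than Cct6a stayed within 0.5 in 103 of their 109 measured pairs, with 3 past it higher (2.75%) and 3 lower (2.75%). Over the values of all genes in the same clusters, 10.3% were past it higher and 17.4% lower. The 3 higher pairs were Cct7 in cluster 13 and Cct3 and Cct4 in cluster 14, and the 3 lower were Tcp1 in clusters 6 and 11 and Cct3 in cluster 12. Tcp1 is the only one of these whose intervals exclude 0.

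**Figure D2:**
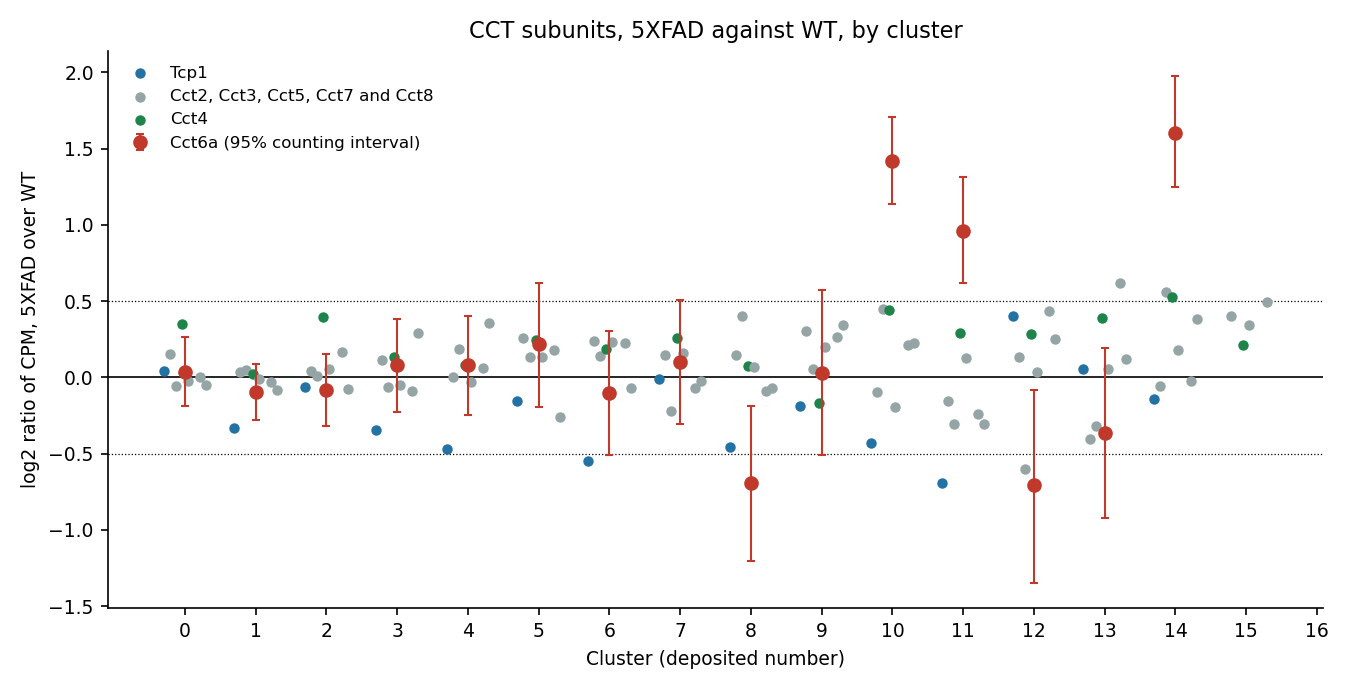
Log2 ratio of CPM, 5XFAD over WT (vertical axis), by deposited cluster (horizontal axis) for each subunit with at least 50 UMIs there. Cct6a is in red with its 95% counting interval, Tcp1 in blue, Cct4 in green and the 5 others in grey, and dotted lines mark 0.5 and -0.5. Cct6a stands at 1.42, 0.96 and 1.60 in clusters 10, 11 and 14 and at -0.69 and -0.71 in clusters 8 and 12, and Tcp1 is below 0 in 12 of 15 clusters.

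Tcp1 was lower in 5XFAD in 12 of 15 measured clusters, with an interval below 0 in 5. Being lower in at least 12 of these clusters was common, at 31.9% of 1371 genes measured in all of them, so the count alone does not set Tcp1 apart. Against the 6 other subunits without Cct6a, a comparison with no scaling, Tcp1 was lower in 14 of 15 clusters, with an interval below 0 in 6. The share of all genes with such a count was not computed. The log2 ratio of the 7 subunits other than Cct6a, summed, was above that of the median gene in 16 of 17 clusters. For this count too the share of all genes was not computed, so it does not set the complex apart. In cluster 6, led by Igha and Jchain, Tcp1 had 113 UMIs in 5XFAD and 115 in WT, and its log2 ratio to the 6 others was -0.72 (-1.14 to -0.31). In B cell-like cells it made up 12.9% of the UMIs of these 7 genes in 5XFAD and 15.2% in WT (-0.28, -0.38 to -0.17). The exception was cluster 12, at 0.27 (-0.44 to 0.99). Its overlapping neighbour Mrpl18 had a log2 ratio of 0.15 (0.02 to 0.28) over all cells, the opposite sign.

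Cct4 went the other way, higher in 15 of 16 measured clusters, with intervals above 0 in clusters 0 and 2. At least 15 of these clusters were higher for 23.8% of 731 genes, again a common count. Against the 6 other subunits without Cct6a, it was higher in 14 of 16, with an interval above 0 in 3. Here too the share of all genes with such a count was not computed. In cluster 2 Cct4 had 285 UMIs in 5XFAD and 209 in WT, which is 0.37 relative to the others on the log2 scale (interval 0.09 to 0.65). Cct2, Cct5 and Cct7 had 0 such intervals off 0 in any cluster, Cct3 had 1 below 0 and Cct8 had 2 above 0.

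Cct6a departed from its partners in 5 of 15 measured clusters, in both directions. In the T cell-like cluster 10 it had 426 UMIs (602 CPM) in 5XFAD and 138 UMIs (226 CPM) in WT, a log2 ratio of 1.42 (1.14 to 1.70), where 9.68% of 3245 genes were past 0.5 higher. The 7 other subunits there stood at 893 and 853 CPM (0.07, -0.10 to 0.24). In cluster 14, led by Lef1, Igfbp4 and Cd8b1, Cct6a had 263 and 85 UMIs (1.60, 1.25 to 1.97; 9.62% of genes past 0.5 higher), and the others were at 0.18 (-0.03 to 0.39). In cluster 11, led by Cd7 and Klrd1, it had 242 and 99 UMIs (0.96, 0.62 to 1.31; 10.7% of genes), and the others were at -0.16 (-0.33 to 0.01). In these 3 clusters Cct6a was far higher in 5XFAD, and its summed partners had intervals that include 0. Of single partners, Cct3 and Cct4 were past 0.5 higher in cluster 14, with intervals that include 0.

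The share of Cct6a among the UMIs of the 8 subunits was 40.3% in 5XFAD and 20.9% in WT in cluster 10, 27.9% and 15.1% in cluster 11, and 39.97% and 19.9% in cluster 14. Relative to its partners the log2 ratio was 1.35 (1.02 to 1.69), 1.12 (0.74 to 1.51) and 1.43 (1.004 to 1.85). The WT shares in these clusters were themselves above the 11.7% of B cell-like cells.

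The opposite was seen in 2 clusters. In the regulatory T cell-like cluster 8 Cct6a had 56 UMIs in 5XFAD and 86 in WT (-0.69, -1.20 to -0.19; 14.2% of genes past 0.5 lower), and in the NK or ILC1-like cluster 12 it had 38 and 54 UMIs (-0.71, -1.34 to -0.08; 14.3% of genes). Relative to its partners these were -0.72 (-1.27 to -0.19) and -0.87 (-1.54 to -0.20). Among 1371 genes measured in the same 15 clusters, 4.89% had, like Cct6a, a ratio past 0.5 with an interval off 0 in 1 cluster and its opposite in another. In the other 10 measured clusters Cct6a lay between -0.37 and 0.22, with intervals that include 0.

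The high level in clusters 10, 11 and 14 sat in few cells. Over both libraries 34 cells held 10 or more Cct6a UMIs, with up to 61 in 1 cell, and 29 of them were in 5XFAD and 5 in WT. Of the 7 other subunits only Cct5 reached 10 UMIs, in 1 cell. The line at 10 was drawn after these values were seen. Just below it 8 cells held 8 or 9 UMIs, just above it 4 held 10 to 12, and 27 held 15 or more.

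In clusters 10, 11 and 14 together, 27 of 290 5XFAD cells were at 10 or more, which is 9.31% (6.23 to 13.3, Clopper-Pearson), and 4 of 252 WT cells, which is 1.59% (0.43 to 4.01). By cluster these were 14 of 119 and 3 of 107 cells in cluster 10, 6 of 111 and 1 of 84 in cluster 11, and 7 of 60 and 0 of 61 in cluster 14. Among clusters 8, 9, 12, 13 and 16 there were 2 of 465 5XFAD cells and 1 of 376 WT cells, in clusters 13 and 16. Among clusters 0 to 7 there were 0 of 2656 and 0 of 2778 cells, which allows a share of up to 0.113% and 0.108% if 3 counts are taken as the limit of a count of 0 (Clopper-Pearson upper limits 0.139% and 0.133%). The 5 WT cells lay in clusters 10, 11 and 13, and the 29 5XFAD cells in clusters 10, 11, 13, 14 and 16.

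**Figure D3:**
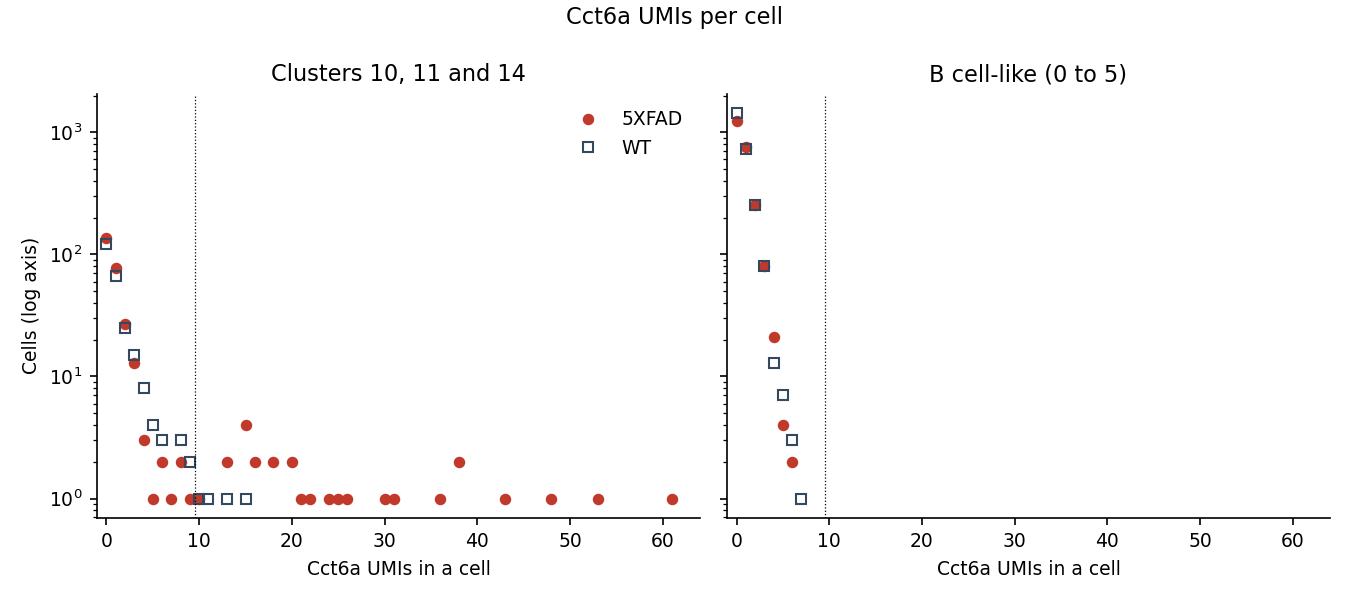
Number of cells (vertical axis, log scale) with each number of Cct6a UMIs (horizontal axis) in clusters 10, 11 and 14 (left) and in the B cell-like clusters (right), for 5XFAD (red points) and WT (open squares), with a dotted line below 10 UMIs. In the left panel the libraries lie close at 0 to 3 UMIs. From 4 to 9 UMIs WT has more cells than 5XFAD at each number except 7, such as 8 against 3 at 4 UMIs. Beyond the line lie 27 5XFAD cells and 4 WT cells, all in the left panel.

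Without the 34 cells, the log2 ratio of Cct6a was -0.38 (-0.83 to 0.06) in cluster 10, -0.39 (-0.84 to 0.06) in cluster 11, -0.12 (-0.60 to 0.35) in cluster 14 and -0.03 over all cells. The Cct6a level of the 5XFAD clusters 10, 11 and 14 then came to 127, 132 and 197 CPM, and that of WT to 166, 172 and 215 CPM. The lower values in clusters 8 and 12 hold no such cell and did not move.

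The share of cells with at least 1 Cct6a UMI gave the same picture. With each cell brought to 3000 UMIs, and cells with fewer left out (3 of 290 and 9 of 252), it was 36.7% in 5XFAD and 34.8% in WT for clusters 10, 11 and 14, against 53.1% and 51.6% before thinning. In B cell-like cells, which serve as no negative control since they express the gene, it was 31.7% and 30.0% (47.2% and 43.0% before). The libraries thus held Cct6a in close shares of cells and differed in how many UMIs a few cells held.

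Spread between cells set Cct6a apart from its partners. At 3000 UMIs per cell in clusters 10, 11 and 14, the variance of its UMIs over their mean was 11.05 in 5XFAD, rank 8 of 2241 genes with at least 50 UMIs, and 2.61 in WT, rank 109 of 1997. A ratio near 1 is what random sampling of an even level gives. The UMI intervals of Cct6a in these clusters rest on such sampling, so they are narrower than its spread between cells would give. The 7 other subunits lay from 0.97 to 1.25 over both libraries, and the median gene was at 1.16 in each.

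The 27 cells of clusters 10, 11 and 14 in 5XFAD held 700 of the 931 Cct6a UMIs of those clusters (4033 CPM, against 144 CPM in the 263 other cells). The partners were not higher with it: they were at 749 CPM (626 to 889) in these cells and 951 CPM (904 to 1000) in the others. Of the 7, Cct4 (92.2 and 170 CPM) and Cct7 (74.9 and 131 CPM) were lower in the cells with much Cct6a with intervals off 0. These rest on only 16 UMIs of Cct4 (log2 interval -1.71 to -0.16) and 13 of Cct7 (-1.74 to -0.004) in the 27 cells. Tcp1, Cct2, Cct3, Cct5 and Cct8 had intervals that include 0. CPM values share 1 total, of which Cct6a held 4033 CPM in these cells. Why these values were lower was not tested.

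**Figure D4:**
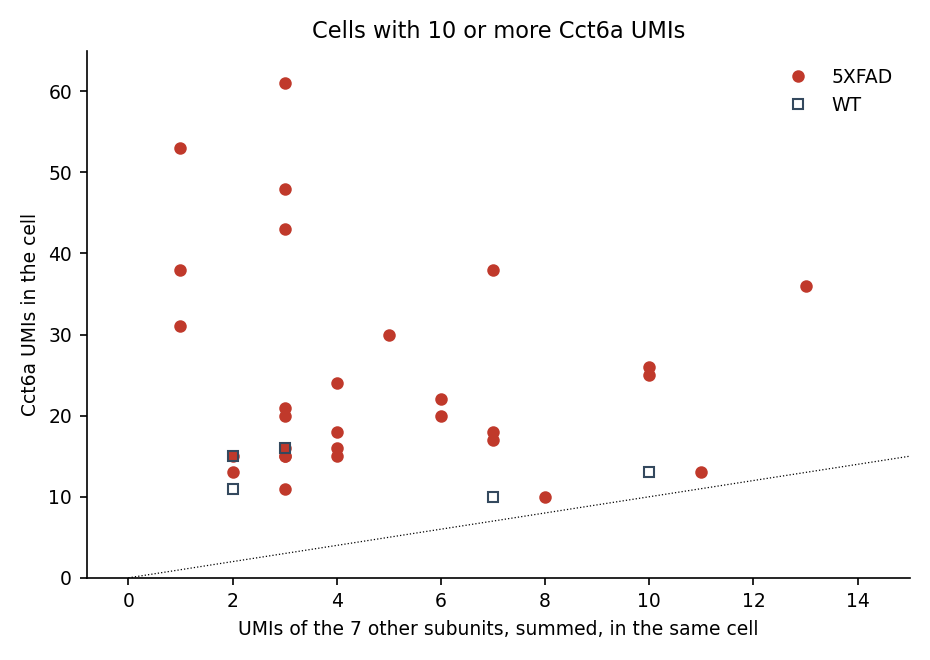
Cct6a UMIs (vertical axis) against the summed UMIs of the 7 other subunits (horizontal axis) in each of the 34 cells with 10 or more Cct6a UMIs, for 5XFAD (red points) and WT (open squares), with a dotted line where both are equal. All 34 cells lie above the line, and the cell with 61 Cct6a UMIs holds 3 of the 7 others together.

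These cells were ordinary in depth. The median was 6017 UMIs and 1862 genes in the 27 cells, and 6074 UMIs and 1842 genes in the 263 others. None of the 34 carries a barcode shared between the libraries. The T cell receptor gene Trac had a UMI in 24 of 27 and 224 of 263 cells, and the T cell gene Cd3e in 26 of 27 and 232 of 263. Others were less frequent in the 27 cells. The T cell receptor gene Trbc2 had a UMI in 24 of 27 and 248 of 263, Trdc in 1 and 42, and Klrd1 in 8 and 115. The summed NK or ILC1 markers were at 294 CPM in the 27 cells and 558 CPM in the 263 others. The 27 cells were mixed in coreceptor, with a Cd4 UMI in 9 and a Cd8a UMI in 5. The summed T cell markers were at 4143 CPM in them and 3836 CPM in the others, the 8 B cell markers at 51.9 and 71.3 CPM. Among 2289 other genes with at least 100 UMIs in these 5XFAD cells, the largest log2 differences (with 20 CPM added) were 1.37 for Tnfsf8, a TNF family ligand, and -2.32 for Xcl1, a chemokine, chosen after their values were seen. Tnfsf8 had a UMI in 10 of the 27 cells, and Xcl1 had 8 UMIs in 5 of them. Tnfsf8 is among the leading genes of cluster 10, which holds 14 of the 27 cells and 119 of the 290 5XFAD cells. The part of this cluster mix was not tested.

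The WT cells of clusters 10, 11 and 14 held more B cell RNA. The 8 B cell markers summed to 42.4, 81.5 and 96.7 CPM in 5XFAD and to 268, 243 and 348 CPM in WT. Of the 8, only 1 was at 0, in 5XFAD cluster 10. Without every cell that has a B cell marker UMI, the Cct6a ratio was 1.21, 1.24 and 1.17. In clusters 8 and 12, where Cct6a was lower, these markers were at 59.7 and 51.9 CPM in 5XFAD and at 211 and 113 CPM in WT. Without such cells the ratio was -0.86 (-1.46 to -0.26) in cluster 8 and -0.80 (-1.67 to 0.05) in cluster 12, where 22 and 29 UMIs were left.

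Likeness over clusters was measured as Pearson's r of log2(CPM + 1) over 32 points, 16 clusters in 2 libraries, among 5270 genes. The points share libraries and depth, so r is given with no test. The genes most like the 7 summed subunits were Gtpbp4 (0.83), Gar1 (0.82), Rpl7l1 (0.81), Ddx21 (0.80) and Apex1 (0.80). Gtpbp4, Gar1 and Ddx21 work in ribosome biogenesis, and Apex1 in DNA base excision repair. The genes most like Cct6a were Npm3 (0.71), Fam241a (0.68), Grap2 (0.63), Gtf2i (0.62) and Rnf19a (0.61), of which Grap2 is an adaptor of T cell receptor signalling. Cct6a itself ranked 1556 in likeness to its partners, with r of 0.26. Without the 34 cells that r was 0.56. For comparison, the r of each other subunit with the 6 remaining ones ran from 0.15 for Cct7 to 0.74 for Cct2. The median r was 0.19 over the 7 pairs with Cct6a and 0.40 over the 21 pairs among the others.

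The companions of the complex were examined in the B cell-like cells. There the median gene stood at -0.12, and 6.95% and 19.8% of genes were past 0.5 higher and lower. In cluster 1 alone the median gene was at -0.13, and 6.29% and 19.8% were past it. The B cell-like clusters differ in cell numbers between the libraries, such as 645 5XFAD and 471 WT cells in cluster 1. The part of this mix in the B cell-like values below was not tested. Of the prefoldin subunits and relatives, 8 of 8 were above 0, with 1 past 0.5 and a median log2 ratio of 0.38. Pfdn4 was the highest (44.7 and 24.4 CPM, 0.88), followed by Uxt (0.40), and Pfdn5 (0.13) and Pdrg1 (0.10) were the lowest. Of 4 measured genes on the cochaperone list, 0 were past 0.5. The phosducin-like genes Pdcl3 (0.31) and Pdcl (0.20) and the thioredoxin domain gene Txndc9 (0.27) were above 0. Nop53, which is on the list but is not itself a phosducin-like cochaperone, was below (-0.40).

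Of 15 tubulins and tubulin folding factors, 5 were past 0.5 higher and 1 lower, with a median of 0.35. Tubb2a (28.3 and 12.2 CPM, 1.21) and Tuba1c (48.0 and 24.4 CPM, 0.98) were the highest, and Tubg1, of the nucleating gamma tubulin ring, was lowest at -0.70 on 39 and 65 UMIs, before Tbcd (-0.44). In cluster 1 alone, 2 of 13 measured genes of the tubulin list were past 0.5 higher and 0 lower, with a median of 0.28. Of 8 actins and actin-related genes in the B cell-like cells, 0 were past 0.5 higher and 1 lower, with a median of -0.18. Actr3, of the Arp2/3 complex, was at 244 and 391.6 CPM (-0.68) and Actb, beta-actin, at 3393 and 4746 CPM (-0.48), while Actr1b (0.08) and Arpc1b (0.02) were the highest.

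Of 15 measured WD40 and other clients, 1 was past 0.5 higher and 2 lower, with a median of -0.16. Rptor, the mTORC1 scaffold, was at -0.78 and Strn3 at -0.60, with Strap (0.56) and Ppp2r2d (0.14) at the other end. In the mitochondrial chaperonin list 1 of 5 was past 0.5 higher and 0 lower, with a median of -0.03. Hspd1 (-0.41) and Hspe1 (-0.17), which form the mitochondrial chaperonin and its lid, were below 0, and Grpel1 (0.80) and Hspa9 (0.29) above it.

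Of the cytosolic HSP70 and HSP90 chaperones and their cochaperones, 0 of 22 were past 0.5 higher and 12 lower, with a median of -0.61, led by Hspa1a (16.7 and 108 CPM, -2.69) and Hspa1b (21.4 and 123 CPM, -2.53), with Dnajb6 (0.47) and Dnaja2 (0.21) at the other end, and 5 of the 22 were above 0. Cluster 5, a B cell-like cluster led by Hspa1a and Hspa1b, holds 119 5XFAD cells and 396 WT cells, and its part in these values was not tested. Of 14 Myc and nucleolar growth genes, 5 were past 0.5 higher and 0 lower, with a median of 0.30. Odc1, the rate-limiting enzyme of polyamine synthesis, was at 245 and 146 CPM (0.75) and Srm, spermidine synthase, at 0.63, and Polr1b (-0.08) and Fbl (-0.05) were lowest. In cluster 1 alone, 0 of the 14 Myc and nucleolar growth genes were past 0.5 higher and 1 lower, with a median of 0.09. Of 9 measured cell cycle genes in the B cell-like cells, 1 was past 0.5 higher and 0 lower, with a median of 0.08. Their ratios ran from Mcm2 (-0.36) and Mcm5 (-0.14) to Top2a (0.29) and Stmn1 (0.56).

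In clusters 10, 11 and 14, where Cct6a stood at 1.32 and the 7 others at 0.01, the median gene was at -0.06, and 7.62% and 13.5% of genes were past 0.5 higher and lower. Prefoldin had 3 of 8 past 0.5 higher and 1 lower (median 0.17), tubulins 1 of 11 higher and 0 lower (0.08), actins 0 of 8 in either direction (-0.14), and HSP70 and HSP90 genes 1 of 21 higher and 4 lower (-0.23).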

How the data were processed

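Colon CD45+ cells were profiled with droplet-based 3' single-cell RNA-seq from 10x, per the labels' protocols. Cell Ranger 6.0.1 and mm10 are named in the submitters' processing notes; for later filters, nothing is stated there. The authors deposited natural log values, ln(1 + counts per 10000 UMIs), and metadata with the count of UMIs and genes and the percent of mitochondrial UMIs per cell, per the file headers. Raw counts were computed back from these values and the deposited totals: 100% of 11758401 values were whole within 1e-06. The library named AD was taken as 5XFAD, the only one that is not WT. A deposited SCT table in natural log values was an alternative. Doublets were not called.

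UMIs were summed per cluster and library and scaled to CPM. Ratios have exact conditional intervals, levels Poisson and shares Clopper-Pearson intervals (95%), from scipy 1.17.1. Genes needed 50 UMIs over both libraries, and called means a log2 ratio past 0.5. Likeness used clusters with 20 cells per library and genes of 20 CPM. The calculation was tested on simulated Poisson counts, which lack the uneven spread of Cct6a between cells. Members and lists were chosen with earlier results of these data known. Named genes are the 8 subunits, the 2 highest and 2 lowest of each list in B cell-like cells (all if 4 or fewer), and the 5 genes most like Cct6a and its partners. Thinning uses the expectation over draws, which replaced 1 random draw after its values were seen. The line at 10 (or 5) Cct6a UMIs, the joining of clusters 10, 11 and 14 and the removal of cells with B cell markers were also chosen after seeing the data.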

Additional observations from a re-analysis of the deposited data

Results flagged for a closer look

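Cct6a was higher in 5XFAD in clusters 10 (log2 ratio 1.42), 11 (0.96) and 14 (1.60) and lower in clusters 8 (-0.69) and 12 (-0.71), each with a counting interval that excludes 0. With 1 library per genotype the difference between these clusters was not tested. Without the 34 cells with 10 or more Cct6a UMIs the ratios of clusters 10, 11 and 14 were -0.38, -0.39 and -0.12, and those of clusters 8 and 12 did not move, since they hold 0 of these cells. Which of the pooled mice gave these cells cannot be told apart, because no label ties cells to mice.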

How the results depend on the processing

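No paired analysis was possible because each genotype has 1 pooled library. For the same reason no replicate could be left out. Of 75 log2 ratios computed with another scaling, thinned cells, the SCT table, the same cluster mix in both libraries, or without top cells, gene-rich cells or cluster 5, 70 moved by less than counting error. A filter on UMIs cannot move these ratios, only counts of them. Scaling by the median of ratios gave 0.18 for Cct6a and 0.18 for the 7 others in B cell-like cells, and 0.41 and 0.16 over all cells. With the same cluster mix in both libraries, Cct6a was at 0.22 over all cells. With at least 200 UMIs, Cct6a was past 0.5 in 3 clusters, alone and relative to its partners, and the 7 others in 1 pair, since fewer pairs are measured. With at least 20 UMIs the 7 others were past 0.5 in 9 pairs, against 6. Without immunoglobulin, ribosomal protein and mitochondrial genes in the total, the highest over the lowest cluster for the 7 others was 1.88, against 1.56, and the lowest cluster was 12 in place of 16. Past a log2 ratio of 1 were 455 genes in B cell-like cells, against 2592 past 0.5.

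Leaving out cells with 10 or more Cct6a UMIs turned its sign in clusters 10, 11 and 14 (-0.38, -0.39 and -0.12; relative to partners -0.47, -0.25 and -0.35). Leaving out those with 5 or more did too (-0.071, -0.23 and -0.38; relative -0.15, -0.10 and -0.60). Both cuts remove the highest values by construction. Over all cells they gave -0.032 and -0.0087 (relative -0.093 and -0.068), and Cct6a was past 0.5 in 2 and 2 clusters (relative 2 and 3). Without cells with a B cell marker UMI, cluster 14 came to 1.17 (relative 0.91); the cause was not tested. Low UMI numbers limit the single subunits in clusters 12 to 16.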
